A study of Gallus gallus with 12 samples.

Results

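The magnum of laying-type hens was compared between 300 and 120 days of age, using 6 of the 12 RNA-sequencing libraries of the series. These 6 were chosen by their titles: 3 magnum libraries at 120 days and 3 at 300 days, all from Lohmann layers, a commercial egg-laying strain of chicken (Gallus gallus). No treatment or genotype is given for any of them, and the series title places the younger birds before lay and the older ones in lay. The other 6 libraries are from the uterus at the same ages and were used to estimate the spread of each gene and, at the end, as a comparison. Nothing in the labels says whether the 3 libraries of an age came from separate hens or pools. The p-values thus set a difference between ages against the spread between libraries, part of which may be technical.

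The magnum is the long segment of the oviduct in which the egg white is laid around the yolk. Its tubular gland cells make and store egg-white proteins such as ovalbumin, ovotransferrin, ovomucoid and lysozyme, and ovalbumin is the most plentiful of these. The glands differentiate under oestrogen as the bird approaches sexual maturity, and in the laying hen messenger RNAs for secreted proteins make up much of the RNA of the tissue. The deposited tables name their genes by numbered identifiers and do not pair them with symbols, and 0 of 19820 identifiers matched the chicken gene table used here. No gene can therefore be tied to these proteins, no marker of the labelled tissue could be looked at, and no sequence is shown. Genes are described by level, by size of change and by library, with 4 identifiers as examples.

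Values are the deposited read counts, which had been scaled so that a typical gene stands at the same level in every library; they are called scaled counts. The scaling leaves the worth of 1 read visible as a regular step among low values. That step was 1.167, 0.778 and 0.774 scaled counts in replicates 1, 2 and 3 at 120 days, and 2.267, 2.372 and 1.952 in replicates 1, 2 and 3 at 300 days. Dividing the column totals by the step gave about 21500000, 18600000 and 18800000 reads assigned to genes at 120 days and about 27500000, 32600000 and 23100000 at 300 days. The older libraries thus held more reads, yet fewer of them fell on a typical gene: the median gene tested stood at 368, 562 and 579 reads in the 120-day libraries and at 177, 167 and 201 reads in the 300-day libraries. Low genes were measured less finely at 300 days for this reason. A listed 0, taken as up to 3 reads, allowed up to 2.32 to 3.5 scaled counts at 120 days and up to 5.86 to 7.12 at 300 days, for counting error only. In replicates 2 and 3 at 120 days the step is below 1, so that a listed 0 also covers 1 read and their limits are understated.

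In the laying-age magnum a handful of genes took most of the messenger RNA. At 300 days the single most abundant gene held 49.3%, 53.4% and 36.1% of all scaled counts in replicates 1 to 3, and 2, 1 and 3 genes were enough to reach 50% of a library. At 120 days 164, 1387 and 1436 genes were needed to reach the same 50% in replicates 1, 2 and 3. The younger magnum was therefore not uniform, and its replicate 1 lay between the other 120-day libraries and the 300-day libraries. To reach 90% of a library took 4977, 6702 and 6730 genes at 120 days and 2109, 1530 and 3003 genes at 300 days. The 10 most abundant genes together held 51.8 percentage points more at 300 than at 120 days (68.3% ± 6.89 against 16.5% ± 19.0, SD, n = 3 each), and the groups did not overlap. An exact two-sided permutation test gave p = 0.1 for this share and for the number of genes that reach 50%, which is the smallest value that 3 against 3 libraries allow. Outside the 10 most abundant genes of each library, 15426630, 13638869 and 13821500 scaled counts remained at 120 days and 18223645, 20470250 and 17787526 at 300 days. The difference in column totals between the ages therefore came mostly from those few genes.

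**Figure D1:**
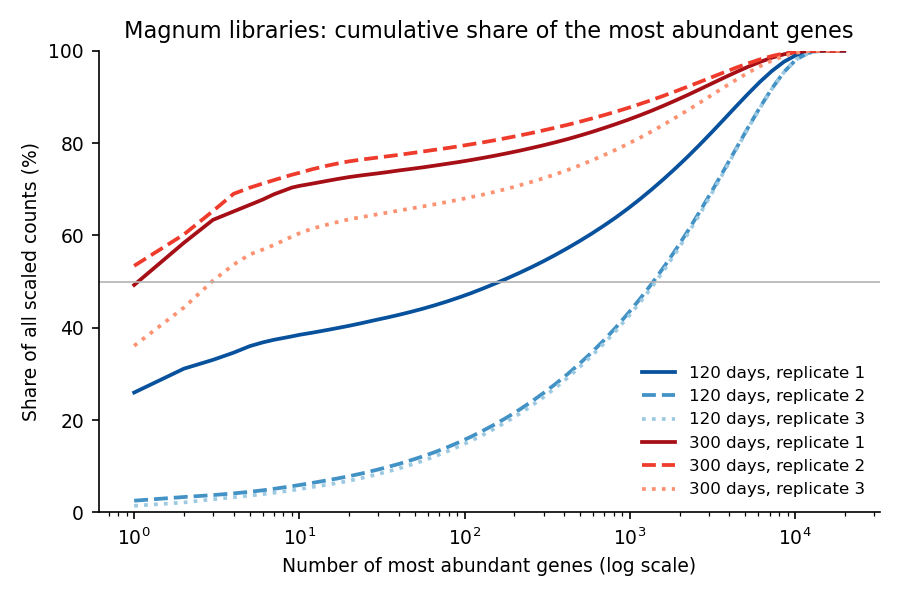
Share of all scaled counts (%, vertical axis) held by the most abundant genes of each magnum library, against the number of genes counted (log scale), with 1 line per library and a grey line at 50%. The 300-day libraries reach 50% within 3 genes, replicate 1 at 120 days with 164 genes, and replicates 2 and 3 at 120 days with 1387 and 1436.

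The identity of the abundant genes changed as well. Of the 100 genes with the highest mean at 300 days, 66 were among the 100 most abundant of replicate 1 at 120 days, 39 among those of replicate 2 and 41 among those of replicate 3. For the 10 highest the numbers were 8, 2 and 3. For the 1000 highest they were 771, 628 and 663, so that replicate 1 shared more genes with the older magnum at each list length. A group of 108 genes stood at a mean of at least 10000 scaled counts in replicates 2 and 3 at 120 days. Of this group 14 rose (13%) and 23 fell (21.3%) with age, where all genes tested gave 12.1% and 13.6%. Its median member stood at 92.2%, 120% and 72.6% of its 120-day level in replicates 1, 2 and 3 at 300 days. Selection by the 120-day level favours falls in such a group.

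Across all 14883 genes tested, 1794 were higher at 300 days, 12.1% of those tested, and 2023 were lower, 13.6%. Values of log2(scaled count + 1) in all 12 libraries entered limma's moderated test, and a call is a Benjamini-Hochberg adjusted p below 0.05. The called falls had the larger median size: the median called rise was 1.08 on the log2 scale (quartiles 0.78 and 1.62) and the median called fall was -1.88 (quartiles -2.76 and -1.24), with a median SE of 0.25 and 0.42. Changes of at least 4-fold made up 320 of the rises and 927 of the falls, but changes of at least 64-fold were found for 35 rises and 14 falls. Changes of at least 2-fold made up 1013 rises and 1725 falls, and in the FPKM table, with 1 added, 949 rises and 896 falls, so that the excess of falls depends on the scale. The median gene tested changed by -0.03, with quartiles of -0.75 and 0.47. Genes whose 3 older libraries all lay above the 3 younger ones made up 18.7% of those tested, and genes whose older libraries all lay below made up 20.5%. Among the calls, 93.6% of the rises and 95.7% of the falls had such separate libraries. The same magnum libraries made the calls, which favours high shares, so nothing is read from these.

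**Figure D2:**
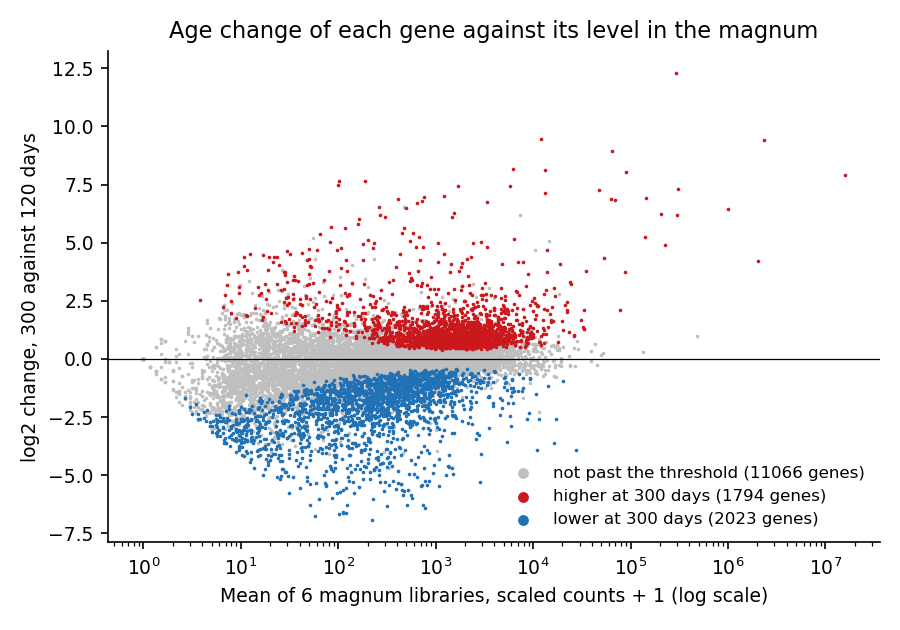
Age change of each gene tested (vertical axis, log2 of 300 against 120 days) against its mean over the 6 magnum libraries (scaled counts + 1, log scale), with 1 point per gene. The 1794 red points rose and lie mostly at high levels, and the 2023 blue points fell and lie mostly at lower ones.

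The division into rises and falls varied with the scale of the values. Rises made up 47.0% of the calls as deposited. They made up 45.3% with trimmed-mean (TMM) scaling, 36.9% once libraries were rescaled to their upper quartiles and 1.06% where values were taken as shares of the column total. In the FPKM table they made up 59.2%. That table stands on nearly the same common scale, but adding 1 to it compresses low genes. A pseudocount of 10 gave 48.8%. As a share of the library the median gene changed by -1.48 on the log2 scale, while the 10 most abundant genes went from 16.5% to 68.3% of the library on average. Of the 1794 rises, 1406 had a lower mean share at 300 than at 120 days, and 112 had a higher share in every 300-day library than in any 120-day library. At 120 days those 112 genes held 29.5%, 0.253% and 0.719% of replicates 1 to 3, and at 300 days 64.2%, 64.4% and 48.3%. A rise in scaled counts thus means a rise relative to a typical gene, and for most of the rises it went with a smaller share of the RNA sequenced. In bulk tissue, fewer cells of a type and less RNA per cell cannot be told apart.

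The number of calls also varied with the libraries in the fit. A fit with fewer libraries has fewer degrees of freedom, which by itself can lower the number of calls. The part of single libraries, or of the spread borrowed from the uterus, was therefore not tested. A limma fit of the 6 magnum libraries alone called 1025 rises and 1361 falls, and kept 55.2% of the rises and 63.7% of the falls. Leaving out replicate 2 or 3 at 120 days left 953 and 796 rises and 1168 and 996 falls, and leaving out replicate 2 at 300 days left 1111 rises. Without replicate 1 at 120 days, which stands apart from the other 120-day libraries, 1959 rises and 2266 falls were called, and 1582 of the rises and 1810 of the falls were kept.

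The calls were counted by level. Among 2692 genes with a mean below 50 scaled counts over the 6 libraries, 86 rose (3.19%) and 415 fell (15.4%). Of the 5152 genes at 50 to 500, 287 rose (5.57%) and 1043 fell (20.2%), and of the 6522 genes at 500 to 5000, 1232 rose (18.9%) and 530 fell (8.13%). Falls were thus the more numerous below 500 and rises above. At 5000 to 50000, 171 of 495 genes rose (34.5%) and 35 fell (7.07%). At 50000 and above, 18 of 22 genes rose (81.8%) and 0 fell. The median change of all genes in these 5 classes went from -0.74 through -0.30, 0.18 and 0.47 to 6.23 on the log2 scale. Much of this mean is set by the age at which a gene is high, so the highest class favours genes that rose. With classes by the mean of the 6 uterus libraries, which take no part in the contrast (added after the data were seen), rises made up 6.01%, 7.83%, 17.2%, 18.1% and 25% from the lowest class to the highest. Falls made up 12.9%, 18.6%, 10%, 11.9% and 25%, and the highest of these classes held 8 genes, 2 rises and 2 falls. Rises thus again outnumbered falls at 500 to 5000 and at 5000 to 50000, but not at 50000 and above. Libraries at 300 days had fewer reads on a typical gene, 167 to 201 against 368 to 579, and the part of this in the falls of low genes was not tested. With a filter of at least 50 scaled counts in 3 libraries, 1760 genes rose and 1815 fell. In the FPKM table, where adding 1 compresses low genes, the median change of the lowest class was -0.10.

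**Figure D3:**
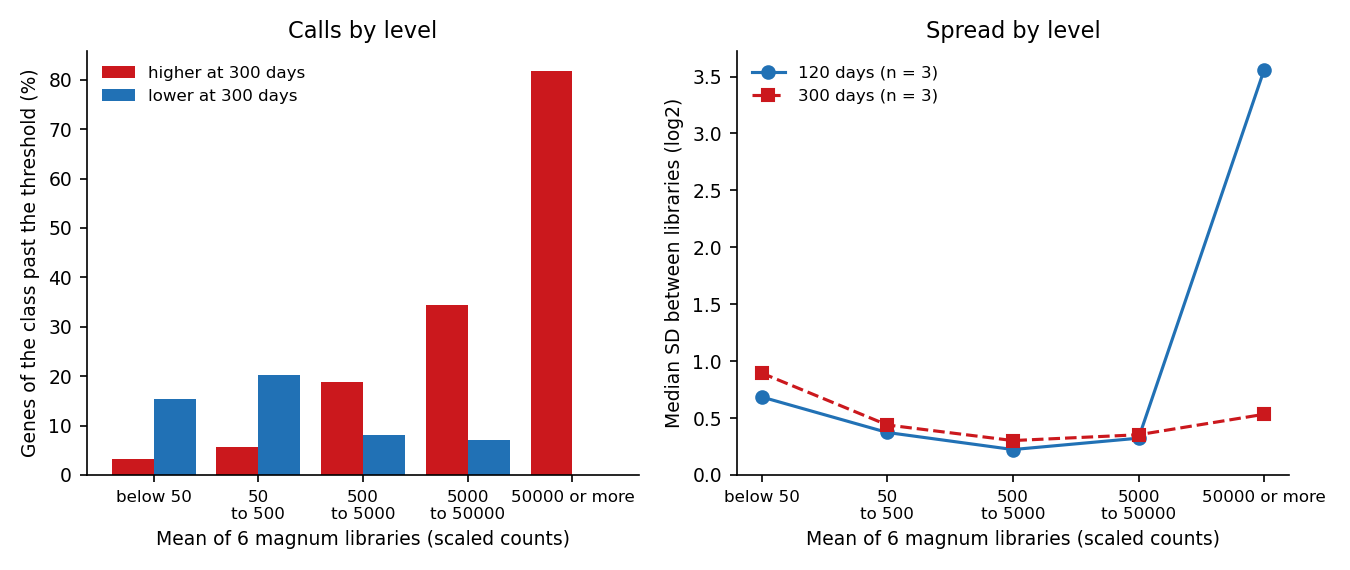
Left, the share of genes past the threshold in each direction (%, bars) by mean level over the 6 magnum libraries (scaled counts). Right, the median over genes of the SD between the 3 libraries of an age (log2) in the same classes, where the 120-day value reaches 3.56 and the 300-day value 0.533 at 50000 and above.

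The calls were also counted by gene length and by kind of gene model. In 4 length classes of equal size, from the shortest (170 to 1997 bases) to the longest (5870 to 42736 bases), rises made up 10.1%, 11.8%, 12.5% and 13.8%, and falls 10.3%, 13.6%, 15.5% and 15%. The median level also went up with length, from 234 scaled counts in the shortest class to 750.0 in the longest. Of 1114 loci carrying a new-gene label, 71 rose (6.37%) and 113 fell (10.1%), against 1723 (12.5%) and 1910 (13.9%) of 13769 numbered genes. These loci stood at a median of 33.6 scaled counts, the numbered genes at 515.0, and the part of level in this difference was not tested.

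The libraries at 120 days were not more spread out than those at 300 days for most genes. The median SD of log2 values was 0.325 at 120 days and 0.392 at 300 days (n = 3 each), and 39.5% of genes had the larger SD at 120 days. That share became 25.5% without replicate 1 at 120 days and 57.3% without replicate 3 at 300 days. Each of these sets SDs from unequal numbers of libraries against each other, which moves the share by itself. Their reference is thus not 50%, and whether the side of 50% rests on a single library was not tested. A wide spread at 120 days was seen in the 22 genes at 50000 and above, a class that genes high at 1 age enter, in which the median SD was 3.56 at 120 days and 0.533 at 300 days. Replicate 1 was the library farthest from the mean of the other 120-day libraries for 45.5% of all genes, and for 69.2% of the 1598 genes with an SD above 1 at that age. Replicate 3 was the farthest for 19.75% and 8.20%. At 300 days replicate 3 was the farthest for 43.15% of all genes, so a share of this size is not particular to 1 library. The median difference between libraries was 0.467 and 0.3525 log2 units for replicate 1 against replicates 2 and 3 at 120 days, and 0.515 and 0.493 for replicate 3 against replicates 1 and 2 at 300 days. Across the 14883 genes, which are not independent replicates, replicates 2 and 3 correlated at 0.966 (Pearson, log2 values), and replicate 1 correlated with them at 0.9 and 0.931. With the 3 libraries at 300 days replicate 1 correlated at 0.915, 0.916 and 0.907, and replicates 2 and 3 at 0.831 to 0.867.

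To place each 120-day library between the ages without letting it choose the genes, the fit was repeated without it. Genes past the threshold with a change of at least 2-fold were then taken, and the left-out library was placed on a scale from 0, the mean of the other 120-day libraries, to 1, the mean at 300 days. Replicate 1 at 120 days stood at a median of 0.429 over 3337 such genes, with quartiles of 0.220 and 0.664. Replicates 2 and 3 stood at -0.107 over 1742 genes and -0.119 over 1518 genes, their reference including replicate 1. The left-out libraries at 300 days, treated in the same way, stood at 0.819, 1 and 0.8215 for replicates 1, 2 and 3. Replicate 1 at 120 days was thus the one library of the 6 that lay well inside the interval between the ages. It was past the midpoint for 42.1% of its genes, against 4.94% and 1.05% for replicates 2 and 3. Choosing genes by their change in the remaining libraries favours a wider interval, which moves a left-out library inward. The part of this in the 0.429 of replicate 1 was not tested.

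**Figure D4:**
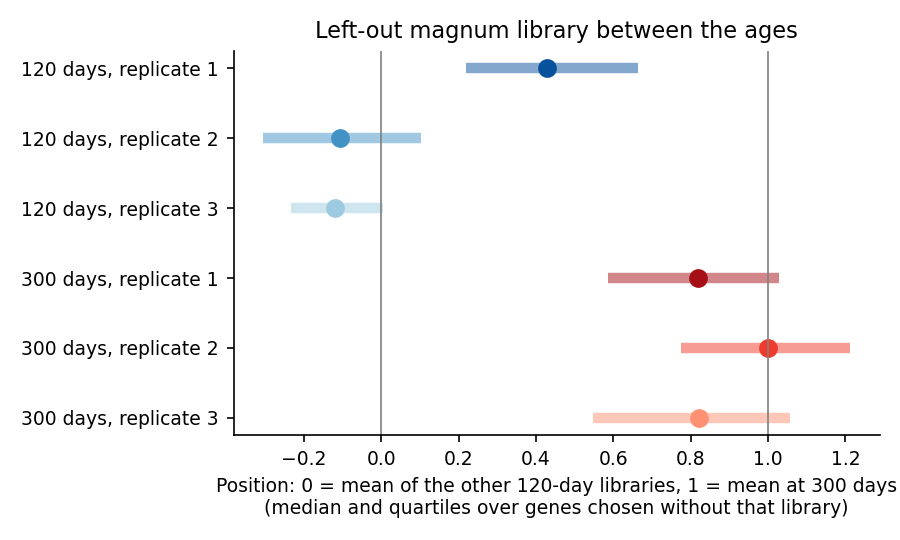
Position of each left-out magnum library (vertical axis) on a scale from the mean of the other 120-day libraries (0) to the mean at 300 days (1). Points are medians and bars the quartiles over genes chosen without that library, with replicate 1 at 120 days at 0.429 and the other 120-day libraries at -0.107 and -0.119.

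The intermediate place of replicate 1 held for genes that rise and for genes that fall, at medians of 0.462 over 1302 rises and 0.412 over 2035 falls chosen without it. For rises it went up with the size of the change, from 0.414 over 841 genes at 2- to 4-fold and 0.561 over 317 genes at 4- to 16-fold to 0.667 over 144 genes at 16-fold or more. For falls the medians were 0.413 over 803 genes, 0.426 over 932 genes and 0.336 over 300 genes in the same classes. The median of the largest rises was thus further along in that library than that of the largest falls, a difference that was not tested, as the genes share 1 library. Their quartiles overlapped, at 0.259 and 0.873 for the rises and 0.193 and 0.63 for the falls. With a pseudocount of 10, the rises and the falls of at least 2-fold both stood at a median of 0.4456.

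A set of 26 genes reached a mean of at least 50000 scaled counts at 300 days, of which 21 rose (80.8%, against 12.1% of all genes tested) and 0 fell (against 13.6%). Selection by this level favours rises, so nothing is read from these shares. The median member stood in replicate 1 at 120 days at 33.7% of its 300-day mean, in replicate 2 at 0.389% and in replicate 3 at 0.766%. Replicate 1 held 21 of the 26 above 10% of that mean, while replicates 2 and 3 each held 7 above 10% and 15 below 1%. At 24 of the 26 genes replicate 1 was the highest of the 3 younger libraries. The genes that dominate the older magnum were thus already abundant in 1 of the younger libraries. In the uterus the median member stood at 0.0665% to 0.143% of the 300-day magnum mean, below every magnum library at 120 days. Each uterus library nevertheless held 7 to 9 of the 26 above 10% of that mean, with 16 below 1%. These counts are close to those of magnum replicates 2 and 3 at 120 days.

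Changes of at least 16-fold were found for 92 rises and 175 falls. The rises reached a median of 1320 scaled counts at 300 days from 55.5 at 120 days, 31 of them were at 5000 or more at 300 days, and together they held 70.5% of the scaled counts of the 3 older libraries. The falls went from a median of 250.0 to 8.33 scaled counts and held 0.00536% of the older libraries. Large gains thus included the dominant genes of the tissue, whereas the median large loss ended near the limit of detection, with the highest at 295 scaled counts. Replicate 1 was the highest of the 120-day libraries at 68 of the 92 rises and the lowest at 10. It was the lowest at 161 of the 175 falls and the highest at 5. That library took part in choosing these genes, so the counts are a description. Of the falls, 15 were listed at 0 in all 3 older libraries, as were 4 of the rises in all 3 younger ones, and the size fitted for these depends on the pseudocount. Over all genes tested, 136 were listed at 0 in every 300-day library, of which 27 were above the limit of a count of 0 in every 120-day library, with a median of 12 scaled counts. The reverse held for 44 genes, 5 of them above that limit in every 300-day library, at a median of 23 scaled counts. The limit was 2.32 to 3.5 scaled counts at 120 days, understated in replicates 2 and 3, and 5.86 to 7.12 at 300 days. Fewer reads also fell on a typical gene at 300 days, so the counts of the ages are not set against each other.

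The examples are the rise and the fall with the highest level and the rise and the fall with the largest change among genes listed above 0 in all 6 libraries. Only genes whose libraries did not overlap between the ages were eligible, so that separation is part of the choice and not a result. The most abundant gene of the older magnum, gene4368 (gene model of 4882 bases), stood at 6511037, 4406 and 53990 scaled counts in replicates 1 to 3 at 120 days. At 300 days it stood at 30674623, 41356959 and 16238092. The younger values ranged over 10.5 log2 units and the older ones over 1.35. As a share of the library it went from 26.0%, 0.0304% and 0.371% to 49.3%, 53.4% and 36.1%. Its log2 change was 7.89 ± 1.85 (SE, adjusted p = 0.0106), and in the fit of the 6 magnum libraries alone the SE was 9.24 and the adjusted p 0.57. limma sets each SE partly from genes of similar mean level, so 9.24 is not the spread of this gene's own libraries. In fits that kept the uterus, its call held without any 1 library of the magnum, at limma adjusted p up to 0.0481. The change was 5.53 without replicate 2 at 120 days.

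The largest rise was that of gene4370 (5362 bases), from 7511, 8 and 19 scaled counts in replicates 1 to 3 at 120 days to 874870, 441098 and 442172 at 300 days. All 3 older values were far above the younger ones, and replicate 1 was again the highest of these. The log2 change was 12.29 ± 1.81 (SE, adjusted p = 0.00106), and it passed in the fit of the 6 magnum libraries alone as well (adjusted p = 0.0188). The SE in that fit was 2.31, although the younger values ranged over 9.71 log2 units, against 10.5 for gene4368. The adjusted p values of gene4368 and gene4370 in that fit also rest on their levels and are not compared. Its share of the library reached 1.41%, 0.570% and 0.983% at 300 days. The SE of 1.81 pools the uterus libraries too, where the gene stood at 45 to 99 scaled counts.

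Among the falls, gene11472 (6078 bases) had the highest level, with 34580, 59953 and 62551 scaled counts at 120 days and 3826, 2687 and 3709 at 300 days. The lowest of the younger values, again that of replicate 1, lay well above all older ones. The log2 change was -3.91 ± 0.29 (SE, adjusted p = 3.8e-05). The largest fall was that of gene4933 (6858 bases), from 518, 1745 and 2366 scaled counts to 18, 7 and 21. The log2 change was -6.43 ± 0.63 (SE, adjusted p = 0.000222). In the FPKM table, with 1 added, it was -3.03. On the scale from replicates 2 and 3 at 120 days to the 300-day mean, replicate 1 stood at 0.808 for gene4368, 0.595 for gene4370, 0.197 for gene11472 and 0.278 for gene4933. These 4 genes were chosen with that library among the 6, so their positions are a description.

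**Figure D5:**
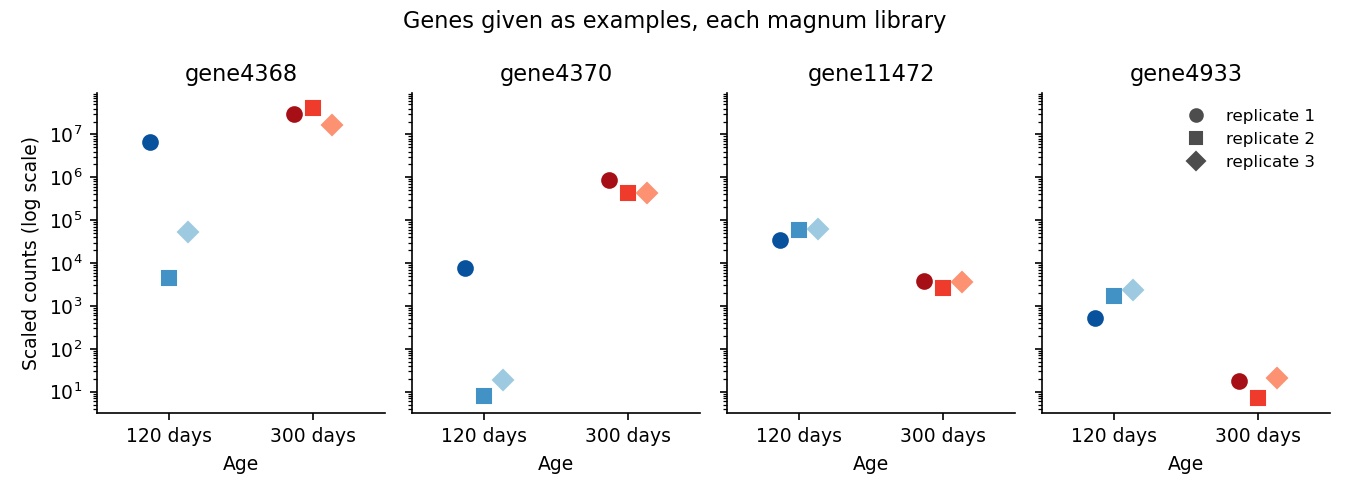
Scaled counts (log scale) of the 4 example genes in each magnum library, by age, with 1 point per library and the replicate shown by shape. The libraries of the ages do not overlap for any of the 4, which their choice required. Replicate 1 at 120 days is the highest of the younger libraries for gene4368 and gene4370 and the lowest for gene11472 and gene4933.

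In the uterus, 6.54% of genes were higher and 7.21% lower at 300 days in the same limma fit, against 12.1% and 13.6% in the magnum. Genes that rose in the magnum had a median uterus change of 0.43 on the log2 scale and genes that fell one of -0.91, where the median of all genes tested was 0.02. Of the magnum rises 19.7% also rose in the uterus and 0.502% fell, and of the magnum falls 33.2% also fell and 2.13% rose. The age comparisons of the segments share no library, but they use the same estimate of spread for each gene, which favours calls in both. At 120 days the deviations of same-numbered magnum and uterus libraries also correlated, at 0.361, 0.591 and 0.390 across genes. Left out in the same way, replicates 1 to 3 of the uterus at 120 days stood at 0.481, -0.198 and 0.00659 between the ages. Replicate 1 was thus the intermediate library at 120 days in both segments.

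By the interaction term of the limma fit, 2.61% of genes changed with age differently in magnum and uterus. Among the magnum rises this held for 121 genes (6.74%), of which 117 had the higher change in the magnum, and among the magnum falls for 162 (8.01%), of which 161 had the lower change there. The same magnum libraries chose these genes and enter the interaction, which favours these directions and shares above 2.61%, so nothing is read from them. The fit takes same-numbered libraries of the segments as independent; with them as correlated pairs within an age the count went from 389 to 1207. For gene4370 the age change in the uterus less that in the magnum was -11.79 on the log2 scale (SE 2.56, limma adjusted p = 0.039). In the uterus it stood at 45 to 77 scaled counts at 120 days and 77 to 99 at 300 days. This gene was chosen as the largest rise in the same magnum libraries, which favours an interaction in this direction. The interaction count became 836 without replicate 1 of the magnum at 120 days and ranged from 114 to 836 over all fits that left out 1 library. That of gene4370 missed the threshold in 10 of its 23 alternatives, each of which left out 1 library, with adjusted p from 1.7e-07 to 0.109 over all 23.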

How the data were processed

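Per the labels' protocols, RNAsimple total RNA went into Smarter mRNA-seq libraries. The submitters' processing notes name TopHat2 2.0.8, Cufflinks 2.0.2, GATK 3.8, Trimmomatic 0.32 and FastQC 0.11.6, without roles. The sources used here do not give genome build, annotation or counting. Near-identical or overlapping genes therefore could not be judged.

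The whole numbers the authors deposited were treated as scores, that is scaled counts: size factors (median of ratios) lay between 0.974 and 1.01 in all 12 libraries while totals differed widely. The FPKM values deposited by the authors stand on nearly the same common scale, with a divisor of 20500000 to 23500000. The worth of 1 read was the step whose truncated multiples best matched the numbers of genes at each value up to 100, and was checked on simulated steps. It held 99.1% of values in replicate 1 at 120 days and 96.0% to 96.95% at 300 days. Its multiples covered 86.0% of the whole numbers up to 100 in replicate 1 at 120 days and 42.0% to 51.0% at 300 days. The 99.1% therefore says less about the step than the shares at 300 days. Replicates 2 and 3 at 120 days have a step below 1, so that 28.0% and 29.0% of whole numbers hold more than 1 read count, and these carried 39.55% and 40.0% of the values.

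The members and lists were chosen with earlier results of these data known. The planned marker lists had 0 entries matched and were not tested. Genes with at least 10 scaled counts in at least 3 libraries were tested (14883 of 19820) on log2(value + 1), two-sided, with limma 3.58.1 in R 4.3.3 and a mean-dependent prior. All 12 libraries entered 1 fit with 8 residual degrees of freedom. A trial on simulated data drew the libraries as independent, with 1 factor of spread per group for all genes. It does not cover correlated libraries or single genes whose spread differs between the ages. On the log2(value + 1) scale the added 1 shrinks the ratio of low values, but a listed 0 in 1 library can enlarge a change. Changes of low genes can thus be understated or overstated. The examples also had to reach a mean of 200 scaled counts in the higher group, change at least 2-fold and have separate libraries. Single library values used exact permutation tests (SciPy 1.17.1). The labels give no batch. The replicate numbers were not used as pairs, since same-numbered magnum libraries of the ages did not deviate together. Deviations of same-numbered magnum and uterus libraries had correlations from 0.361 up to 0.591 in the younger group and from 0.0838 up to 0.216 in the older, and the fit with them as correlated pairs was an alternative.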

Additional observations from a re-analysis of the deposited data

Results flagged for a closer look

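The age change differed between the segments, by the interaction in the limma fit of all 12 libraries, for 389 genes at a Benjamini-Hochberg adjusted p below 0.05. For gene4370 the uterus age change minus the magnum age change was -11.79 on the log2 scale (SE 2.56, adjusted p = 0.039), and all 3 magnum libraries at 300 days lay above all 9 others. The gene was chosen as the largest rise in these magnum libraries, which favours both. Without magnum replicate 1 at 120 days the number of genes was 836 and the adjusted p of gene4370 was 1.7e-07. With same-numbered magnum and uterus libraries of an age as correlated pairs the number was 1207.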

How the results depend on the processing

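Under the alternatives run, no called change of the 4 example genes reversed. The call of gene4368 was lost in the fit of the 6 magnum libraries alone (adjusted p 0.57), and in that fit without replicate 1 at 120 days (0.101, added after the data were seen). Both values also rest on the mean-dependent prior and not on the spread of this gene alone. Its 19 alternatives ran from 1.4e-05 to 0.57; gene4370, gene11472 and gene4933 kept their calls in all of theirs. Division by library totals gave 128 rises, 11925 falls and 8380 interaction genes. The fit of the magnum alone gave 1025 rises. Fits that left out 1 library gave 796 to 1959 rises, 996 to 2266 falls and 114 to 836 interaction genes. Without replicate 1 of both segments at 120 days, added after the data were seen, there were 967 interaction genes. Genes with the larger SD at 120 days made up 44.2% with the FPKM values, 41.7% with a pseudocount of 10 and 25.5% to 57.3% when a library was left out. Leaving out replicate 1, 2 or 3 gave 25.5%, 33.9% and 43.5% at 120 days and 47.2%, 45.7% and 57.3% at 300 days. That last range thus mixes unequal numbers of libraries at the ages with the choice of library, so it is not compared with the other shares. The replicate numbers did not pair the ages: same-numbered magnum libraries had correlations of deviations from -0.172 to -0.0866, and 0 of 6 libraries correlated best with their own number. With the replicate block there were 1712 rises, 2015 falls and 269 interaction genes. With same-numbered magnum and uterus libraries of an age as correlated pairs (correlation 0.319) there were 1791, 2027 and 1207. The library shares kept their direction, and the left-out positions kept sign. In the alternatives the left-out replicates 1 to 3 at 120 days stood at 0.4265 to 0.4618, -0.1431 to -0.0517 and -0.134 to -0.0988. Estimated library weights did not converge and are not used. Depth limits low genes, most at 300 days.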
